A study of Mus musculus with 4 samples.

Results

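In thymocytes of PLZF-transgenic mice, 933 streptavidin ChIP peaks had a score of at least 100 and no peak of the NKT library within 1 kb. They are called unmatched peaks here. They were chosen by the values themselves, the score of the peak in the PLZF-transgenic list and the absence of a listed NKT peak, with peaks of chrM and chrY left out. They made up 933 of the 2871 PLZF-transgenic peaks at or above that score (32.5%), of 5198 peaks in that list and of 9444 in both lists. The other 1938 peaks of that score had an NKT peak within 1 kb and are called matched peaks. These shares follow from the choice and are not a result.

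The series profiled DNA bound by PLZF in mouse thymus on a C57BL/6 background, with chromatin of sonicated nuclei captured on streptavidin beads. The library labelled Tg thy came from PLZF tg/BirA tg mice, and the library labelled NKT from PLZF tg/BirA tg/Valpha14 tg mice. Both lines thus carried a PLZF transgene and BirA, the bacterial biotin ligase, and the NKT line also a Valpha14 T cell receptor transgene. Both cell types are given as thymocytes, with no word on sorting of NKT cells, on the promoters that drive the transgenes, on the age of the mice or on pooling of animals. There was 1 library per group, so no replicate error exists and no value below carries a test between the lines. No capture from mice lacking the PLZF transgene was analysed here, so PLZF binding and nonspecific capture cannot be told apart. Read depth is unknown.

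PLZF, encoded by Zbtb16, is a BTB zinc finger transcription factor that binds DNA through its zinc fingers and recruits co-repressors through its BTB domain. In the thymus it is known as the factor that gives invariant natural killer T cells their innate-like effector program. Most conventional thymocytes do not express it, so a PLZF transgene can place the factor in cells that normally lack it. Which thymocytes expressed the transgene here is not given.

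Among the unmatched peaks, those that lay over the transcription starts of T cell genes allowed the DNA under the peak to be shown. The following 6 windows run from 250 bp before to 50 bp after an annotated start and are RefSeq sequences of build GRCm38.p6, which mm10 corresponds to. Txk and Lck encode kinases of T cell receptor signalling, Cd3e a chain of the T cell receptor complex, and Cd5 a receptor that dampens its signal. Ptpn7 encodes a phosphatase of MAP kinases in blood cells, and Dclre1c the nuclease Artemis, which opens DNA hairpins in V(D)J recombination. Capitals mark every match, on either strand, to the letters CANNTG (E box), CTTTGA (TCF) or CGGAAGT (ETS). The letters TGTGGT (RUNX), TGANTCA (AP-1) and GGGANTTCC (NF-kB) were searched too and had no match in these windows.
Txk: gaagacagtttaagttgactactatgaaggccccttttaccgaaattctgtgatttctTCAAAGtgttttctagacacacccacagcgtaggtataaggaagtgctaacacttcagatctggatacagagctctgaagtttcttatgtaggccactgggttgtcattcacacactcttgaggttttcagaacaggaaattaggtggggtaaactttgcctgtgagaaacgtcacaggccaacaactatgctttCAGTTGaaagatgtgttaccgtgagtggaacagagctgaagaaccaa
Dclre1c: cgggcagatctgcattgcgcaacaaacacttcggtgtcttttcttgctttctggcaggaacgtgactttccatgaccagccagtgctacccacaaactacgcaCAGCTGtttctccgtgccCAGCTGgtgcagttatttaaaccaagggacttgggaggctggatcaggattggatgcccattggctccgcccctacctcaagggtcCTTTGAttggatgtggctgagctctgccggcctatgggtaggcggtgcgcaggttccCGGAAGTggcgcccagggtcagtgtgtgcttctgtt
Cd5: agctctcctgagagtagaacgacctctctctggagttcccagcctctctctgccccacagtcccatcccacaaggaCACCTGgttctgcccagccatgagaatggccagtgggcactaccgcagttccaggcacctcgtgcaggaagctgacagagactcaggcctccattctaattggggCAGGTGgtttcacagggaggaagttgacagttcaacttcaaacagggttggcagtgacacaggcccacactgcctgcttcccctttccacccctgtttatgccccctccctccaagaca
Cd3e: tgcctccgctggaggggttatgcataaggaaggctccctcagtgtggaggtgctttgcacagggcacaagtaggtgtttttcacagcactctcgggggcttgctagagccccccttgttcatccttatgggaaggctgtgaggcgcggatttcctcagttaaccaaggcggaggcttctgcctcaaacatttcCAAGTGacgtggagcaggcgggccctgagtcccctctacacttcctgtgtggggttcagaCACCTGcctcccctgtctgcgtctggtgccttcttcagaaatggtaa
Lck: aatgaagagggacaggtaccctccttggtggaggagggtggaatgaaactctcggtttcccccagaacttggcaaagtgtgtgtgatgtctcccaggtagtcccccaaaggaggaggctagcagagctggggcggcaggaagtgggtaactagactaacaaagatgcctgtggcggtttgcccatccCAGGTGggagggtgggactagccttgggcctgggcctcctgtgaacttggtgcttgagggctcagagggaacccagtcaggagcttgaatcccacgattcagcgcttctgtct
Ptpn7: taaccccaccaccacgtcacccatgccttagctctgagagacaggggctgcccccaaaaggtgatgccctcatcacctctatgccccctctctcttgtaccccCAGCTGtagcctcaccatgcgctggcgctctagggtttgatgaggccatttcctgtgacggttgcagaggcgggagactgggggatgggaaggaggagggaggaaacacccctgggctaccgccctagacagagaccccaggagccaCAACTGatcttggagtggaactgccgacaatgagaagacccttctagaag
The Txk window lies at chr5:72752728-72753027 on the minus strand, and the peak over it scored 273.2. The Dclre1c window, chr2:3423881-3424180 on the plus strand, lay under a peak of score 254.4. The Cd5 window, chr19:10738925-10739224 on the minus strand, lay under a peak of score 229.8. Of the 6 windows, Cd5 and Dclre1c reached slightly beyond the peak, with 289 and 296 of their 300 bases inside it, and the other 4 lay wholly inside. The Cd3e window, chr9:45009562-45009861 on the minus strand, lay under a peak of score 203.4. The Lck window, chr4:129558323-129558622 on the minus strand, lay under a peak of 177.7, and the Ptpn7 window, chr1:135133059-135133358 on the plus strand, under one of 176.6. All 6 held an E box, which most promoter windows do. The Traf3ip3 window, wholly inside a peak of score 293.2, is not shown and held no match to any of the letters searched. Dclre1c alone of the 6 held the ETS letters, 14 bp after its start, and the TCF letters stood 192 bp before the start of Txk and 43 bp before that of Dclre1c.

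The unmatched peaks were low in score compared with the matched ones. Their scores ran from 100.06 to 661.87 with a median of 141.0 and quartiles of 115.1 and 186.0, against a median of 228.5 in matched peaks. Both limits of the choice cut through closely spaced peaks. The 5 unmatched peaks just inside the score minimum scored 100.06 to 100.25, and the 5 peaks just outside it 99.74 to 99.98. The 5 just inside the distance limit lay 1002 to 1086 bp from an NKT peak, and the 5 just outside 897 to 987 bp. Because the score chose the peaks, these values are a description and nothing is drawn from them.

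Unmatched peaks were common among low PLZF-transgenic scores and rare among high ones. At scores of 100 to 150, 535 of 983 peaks (54.4%) were unmatched, and at 150 to 200 it was 222 of 572 (38.8%). At 200 to 300, 146 of 637 peaks (22.9%) had no NKT peak, and from 300 upward 30 of 679 (4.42%). Where an NKT peak was listed, its score was also low at low PLZF-transgenic scores. The median NKT score at matched peaks was 93.1 in the lowest class and 230.4 in the highest. The lowest score in the NKT list was 50.02, so a weaker NKT signal would not be listed. Of matched peaks, 32.8% in the lowest class and 6.16% in the highest had an NKT score under 75. The part of this list limit in the absence of NKT peaks was not tested.

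**Figure D1:**
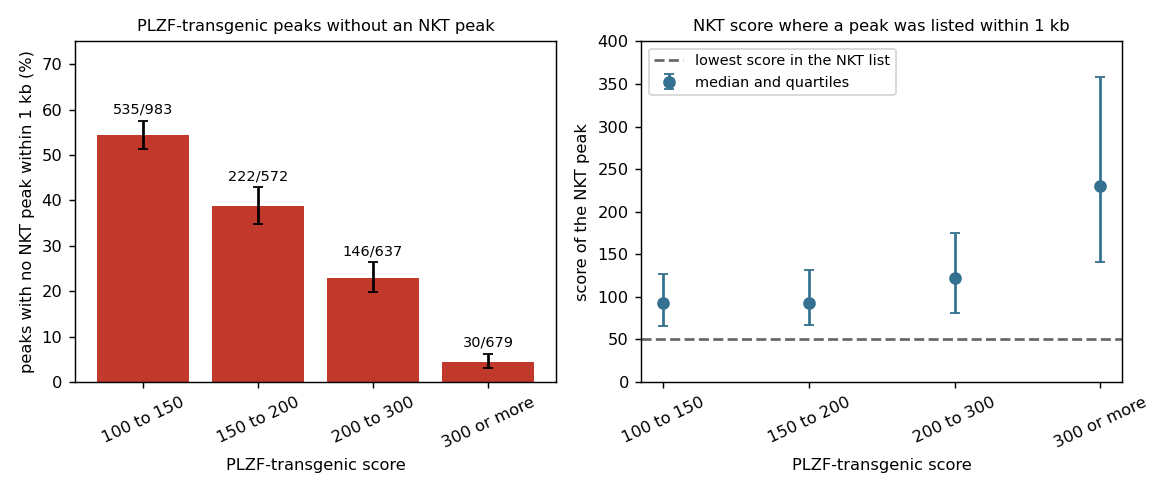
Left, share of PLZF-transgenic peaks with no NKT peak within 1 kb by PLZF-transgenic score class, with exact 95% intervals and counts above the bars. Right, NKT score at the peaks that had one, as median and quartiles, with the lowest listed NKT score dashed. The share without an NKT peak is 54.4% in the lowest class and 4.42% in the highest, while the median NKT score is 93.1 and 230.4 there.

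Unmatched peaks had a median width of 462 bp (quartiles 396 and 545) and matched peaks one of 559 bp. At scores of 100 to 150 the medians were 412 bp in unmatched and 398 bp in matched peaks, at 150 to 200 they were 504 and 492 bp, at 200 to 300 they were 629.5 and 583 bp, and from 300 upward 758.5 and 766 bp. The 933 peaks formed 918 sites when peaks within 1 kb of each other were merged, and 29 peaks shared a site with another.

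Unmatched peaks were found on every chromosome kept. Their share of peaks of score 100 or more ran from 27.1% on chromosome 8 (33 of 122, exact interval 19.4 to 35.8%) to 40.4% on chromosome 13 (61 of 151, 32.5 to 48.7%) among the autosomes. Chromosome X had 3 of 13. The share over all chromosomes, 32.5%, lay inside the interval of chromosome 8 and at the lower end of that of chromosome 13.

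Most unmatched peaks lay more than 10 kb from any NKT peak. The nearest NKT peak lay a median of 49.1 kb away (quartiles 11.9 and 161 kb). It was within 5 kb for 131 peaks (14.0%), within 10 kb for 206 (22.1%) and within 100 kb for 582 (62.4%). These distances were not compared with those of other positions in the genome, so they do not show isolation from NKT peaks. Within their own library, unmatched peaks lay farther from other peaks than matched peaks did. The nearest other PLZF-transgenic peak lay a median of 24.9 kb from unmatched and 12.6 kb from matched peaks, and it was within 10 kb for 35.9% of unmatched peaks (exact interval 32.8 to 39.1%) and 46.7% of matched peaks (44.4 to 48.9%). Matched peaks had higher scores, and the part of score in that difference was not tested.

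Unmatched and matched peaks lay in much the same places. Gene boundaries lay no more than 1 kb from 22.9% of unmatched peaks (214 of 933, exact interval 20.3 to 25.8%) and 23.7% of matched peaks (460 of 1938, 21.9 to 25.7%). Inside genes, over 1 kb from a boundary, were 52.4% of unmatched and 50.1% of matched peaks, and between genes 24.7% and 26.2%. The boundary share of unmatched minus matched peaks was -0.799 percentage points, with an interval of -4.03 to 2.56. All of these intervals cover counting error only, since peaks of 1 library are not biological replicates.

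Transcription starts gave the same picture. On the chromosomes with annotated start windows, 101 of 906 unmatched peaks (11.1%) and 190 of 1894 matched peaks (10.03%) covered a start. Within 10 kb of a start were 45.0% of unmatched and 42.5% of matched peaks, and over 100 kb away 7.17% and 6.97%. Where the midpoint of an unmatched peak fell within 1 kb of a start, it lay upstream in 98 cases and downstream in 58, with a median position of -56.5 bp. Matched peaks had 176 upstream and 111 downstream, with a median of -52.0 bp. No protein-coding gene lay within 100 kb of 51 unmatched peaks (5.47%) and 136 matched peaks (7.02%).

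**Figure D2:**
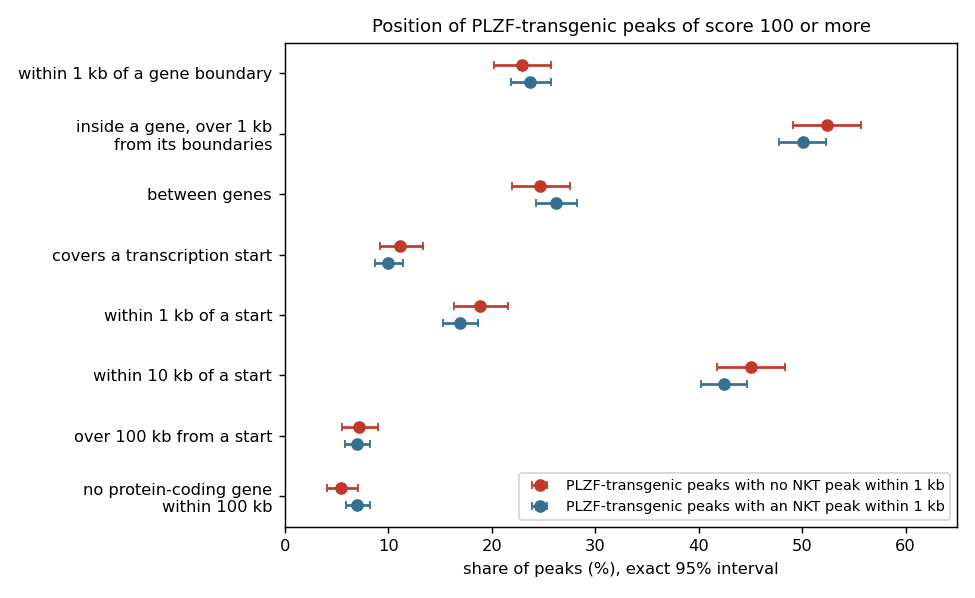
Share of unmatched (upper point of each pair) and matched (lower point) PLZF-transgenic peaks of score 100 or more in each position class, with exact 95% intervals for counting error. The intervals of the pair overlap in every class, for example 22.9% and 23.7% at gene boundaries and 11.1% and 10.03% over a transcription start.

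Promoters under unmatched peaks were searched for motifs of T cell transcription factors. Unmatched peaks overlapped 121 start windows of 114 protein-coding genes by at least 1 bp, and 32 windows of lncRNA genes. The 10 genes with windows under the highest scores were the lncRNAs Gm19497 and Gm30369 and the protein-coding genes Timm22, Tut1, Dcp1a, Traf3ip3, Ablim1, Txk, Dclre1c and Mpp4 (scores 245.0 to 460.8). The ETS letters stood in 22 of 121 windows under unmatched peaks (18.2%, exact interval 11.8 to 26.2%), in 26.0% of 223 windows under matched peaks (20.4 to 32.3%) and in 8.48% of all 21045 windows of protein-coding genes. The RUNX letters stood in 28 of 121 windows under unmatched peaks (23.1%, 16.0 to 31.7%), in 13.0% under matched peaks (8.89 to 18.1%) and in 14.7% of all windows. ETS and RUNX name transcription factor families active in thymocytes.

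The TCF letters stood in 21.5% of windows under unmatched peaks (14.5 to 29.9%) and 15.2% under matched peaks, against 14.4% of all windows. The E box letters stood in 71.9%, 67.7% and 69.0% in the same order, the AP-1 letters in 5.79%, 2.24% and 7.04%, and the NF-kB letters in 2.48%, 2.24% and 1.86%. Median GC content was 54.7% in windows under unmatched peaks, 56.3% under matched peaks and 56.7% in all windows, and the median number of CpG was 13, 17 and 13. No test was run on these shares, both strands were searched, a base could count in more than 1 motif, and windows of neighbouring starts can overlap. A match describes letters and is not a binding site, and the absence of one says nothing about a factor.

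**Figure D3:**
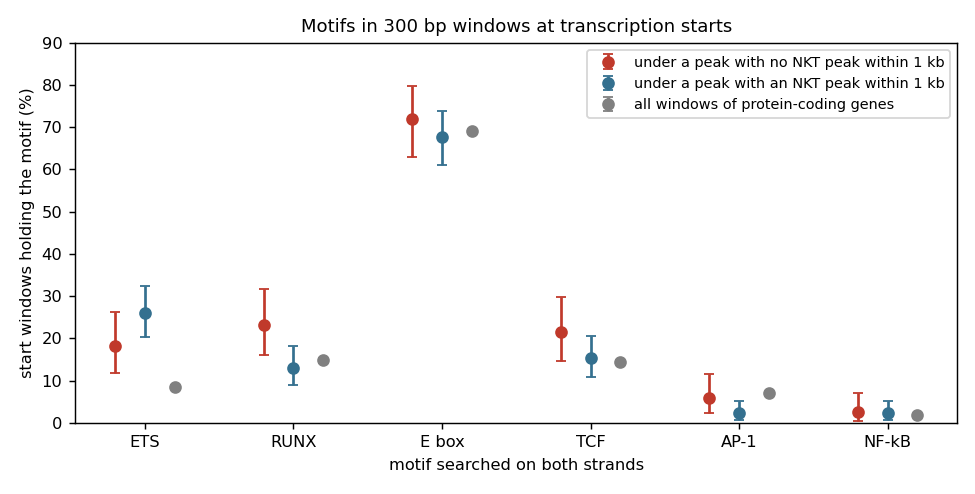
Share of 300 bp start windows of protein-coding genes that hold each motif, for windows under unmatched peaks (121, left point), under matched peaks (223, middle) and all windows (21045, right), with exact 95% intervals. RUNX letters are in 23.1% of windows under unmatched peaks, 13.0% under matched peaks and 14.75% of all windows. ETS letters are in 18.2%, 26.0% and 8.48% in the same order.

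The 20 unmatched peaks of the highest score, 325.83 or more, lay near genes of varied function. The midpoint was inside the nearest protein-coding gene for 10 of them. These genes were Hvcn1 (474.35), a voltage-gated proton channel, Ldlrad3 (389.31), a receptor-like membrane protein, Arhgef18 (366.15), a guanine nucleotide exchange factor, and P3h4 (364.4), of the collagen-modifying machinery of the endoplasmic reticulum. The others were Hivep2 (361.31), a large zinc finger protein, Reep1 (343.84), which shapes the endoplasmic reticulum, Ctse (343.6), the protease cathepsin E, Rsbn1l (331.55), Kat2b (329.04), a histone acetyltransferase, and Sla (325.83), an adaptor that lowers T cell receptor levels.

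Another 7 of the 20 lay outside their nearest gene by up to 50 kb. They were Dusp10 (572.55), a phosphatase of JNK and p38, Fmod (460.83), a matrix proteoglycan, Zfp629 (403.15), a zinc finger protein, and Map3k8 (388.8), a kinase upstream of ERK. The rest of these were Ggta1 (368.09), a galactosyltransferase, Gm525 (358.76) and Coa7 (332.78), an assembly factor of cytochrome c oxidase. Farther than 50 kb lay Tnfaip3 (661.87, at 89.5 kb), the ubiquitin-editing inhibitor of NF-kB known as A20, and Max (370.06, at 94.9 kb), the dimer partner of MYC. One peak of score 441.23 had no protein-coding gene within 100 kb, and its nearest start, 10.6 kb away, was that of the lncRNA D730003K21Rik. An NKT peak lay within 10 kb of 7 of the 20 and over 100 kb from 5, so high unmatched peaks occurred both beside and far from NKT peaks. The Fmod peak covered the start of the lncRNA Gm19497, and the Arhgef18 peak that of Gm30369.

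Unmatched peaks were spread thinly over genes. A peak was given to the protein-coding gene closest to its midpoint, up to 100 kb away, and 882 of the 933 had one. They fell on 773 of 21631 protein-coding genes (3.57%), against 1339 genes with a matched peak (6.19%) and 2561 with any NKT peak (11.8%). Of the 773 genes, 683 had 1 unmatched peak, 77 had 2 and 13 had 3 or more. An NKT peak was assigned to 339 of the 773 elsewhere in the same gene or its surroundings, and a matched peak to 241. The remaining 434 genes, with 463 unmatched peaks, had no NKT peak assigned to them. An NKT peak that lay closer to a neighbouring gene could still be near, and for 16 of the 434 one lay within 10 kb of the highest unmatched peak.

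The 13 genes with 3 or more unmatched peaks were of varied function and included Runx1, Satb1 and Cd28. Ldlrad3 had 5, scoring 134.7 to 389.3, all inside the gene and 1.73 to 15.5 kb from an NKT peak. Itpr2, a calcium channel of the endoplasmic reticulum, Rftn1, a lipid raft protein of lymphocytes, Clec16a, a regulator of mitophagy, and Runx1, a transcription factor needed for T cell development, had 4 each. At Runx1 they scored 200.4, 166.9, 139.4 and 137.3, and the peak of 166.9 covered a start of Runx1. At Itpr2 the scores were 219.2, 120.5, 105.0 and 104.7, and NKT peaks lay 10.7 to 101 kb away. Several of the 13 genes were long, for example Itpr2 at 394 kb, Ldlrad3 at 236 kb and Runx1 at 225 kb, while Cd28 spanned 27.0 kb. The median length over all protein-coding genes was 17.3 kb, and the part of gene length in these counts was not tested.

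Satb1, a chromatin organiser of thymocytes, had 3 unmatched peaks of 216.7, 144.3 and 102.6. The peak of 144.3 covered a start of Satb1, while the other 2 lay 59.8 and 73.2 kb from the gene. Cd28, the main costimulatory receptor of T cells, had 3 of 188.3, 143.4 and 104.0. Bicdl1, a dynein adaptor, Usp3, a deubiquitinase, and Cldn10, a tight junction protein, also had 3 each at separate sites. Trio, a guanine nucleotide exchange factor, had 3 at a single site, scoring 236.2, 149.4 and 121.2. Of the 13 genes, Mtmr12, an adaptor of lipid phosphatases, had neither a matched nor an NKT peak, and its 3 peaks of 188.4, 112.9 and 104.5 formed 2 sites at least 218 kb from one. The 3 peaks at Ldlrad4, an inhibitor of TGF-beta signalling, likewise formed 2 sites, and scored 171.9, 133.8 and 122.5.

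Genes of 17 lists were then read against the 3.57% of all protein-coding genes with an unmatched peak. In all, 92 list genes had one, of which 52 also had a matched peak, 27 had no assigned NKT peak and 12 had an unmatched peak over a start. Among all 773 genes with an unmatched peak, 241 had a matched peak, 434 no assigned NKT peak and 73 an unmatched peak over a start. The median gene length was 50.6 kb in the T cell receptor list and 17.3 kb over all protein-coding genes, and the part of gene length in the shares was not tested. The counts are descriptions and no list was tested.

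**Figure D4:**
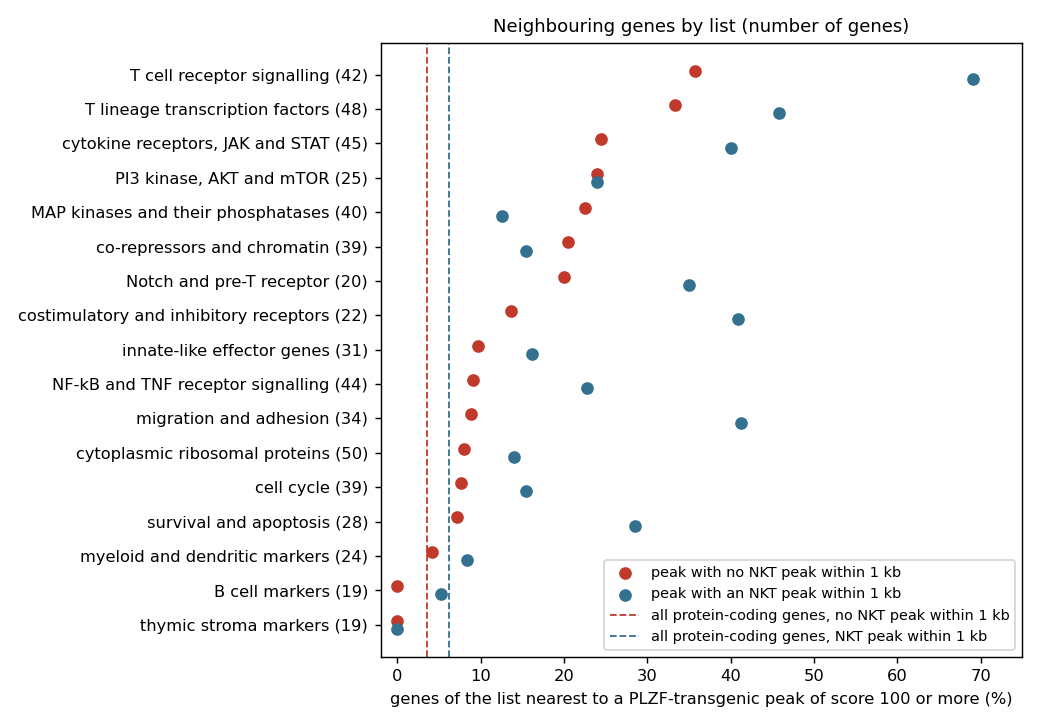
Share of the genes of each list that were nearest to an unmatched peak (upper point) or to a matched peak (lower point), with the number of genes in brackets and the shares of all protein-coding genes, 3.57% and 6.19%, dashed. T cell receptor signalling is highest, with 35.7% and 69.0%, and the B cell and thymic stroma lists hold no gene with an unmatched peak.

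T cell receptor signalling was the list with the largest share of genes beside an unmatched peak, and nearly all of these genes had NKT peaks too. Of its 42 genes, 15 had an unmatched peak, 29 a matched peak and 34 an NKT peak. Besides Sla, the highest unmatched peaks were those at Txk (273.2), Prkcq (261.1), the kinase PKC-theta, Cd5 (229.8), Cd3e (203.4) and Cd8b1 (190.0), a chain of the CD8 coreceptor. Txk was the gene of the 15 with no NKT peak assigned to it. Its peak, chr5:72752440-72753172, covered the start shown above, and the nearest NKT peak, of score 104.6, lay 8.21 kb away.

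The start of Cd3e lay just beyond the reach of an NKT peak. The unmatched peak there, chr9:45009221-45010001, was 1.08 kb from an NKT peak of score 53.9, close to the lowest score listed. At Cd5 the distance was 1.28 kb, to an NKT peak of 122.1. These 2 peaks thus owe their place to the 1 kb window. The peak over the Lck start, chr4:129558264-129558943, lay 14.6 kb from the nearest NKT peak, which scored 126.6.

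Among 48 transcription factors of the T lineage, 16 had an unmatched peak, 22 a matched and 31 an NKT peak. The highest were at Ets1 (248.4), Eomes (246.7), Bcl11b (242.9), which fixes T cell identity, Ikzf1 (225.2), encoding Ikaros, Satb1 (216.7) and Runx1 (200.4). Eomes, a T-box factor of memory and innate-like T cells, had no assigned NKT peak, but its peak lay 81.4 kb from the gene. Nr4a3, an orphan nuclear receptor induced by T cell receptor signals, had none either, with an unmatched peak of 119.0 inside the gene and the nearest NKT peak 649 kb away. At Ets1, 6 matched peaks reached 862.2, above both of its unmatched peaks (248.4 and 142.1).

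**Figure D5:**
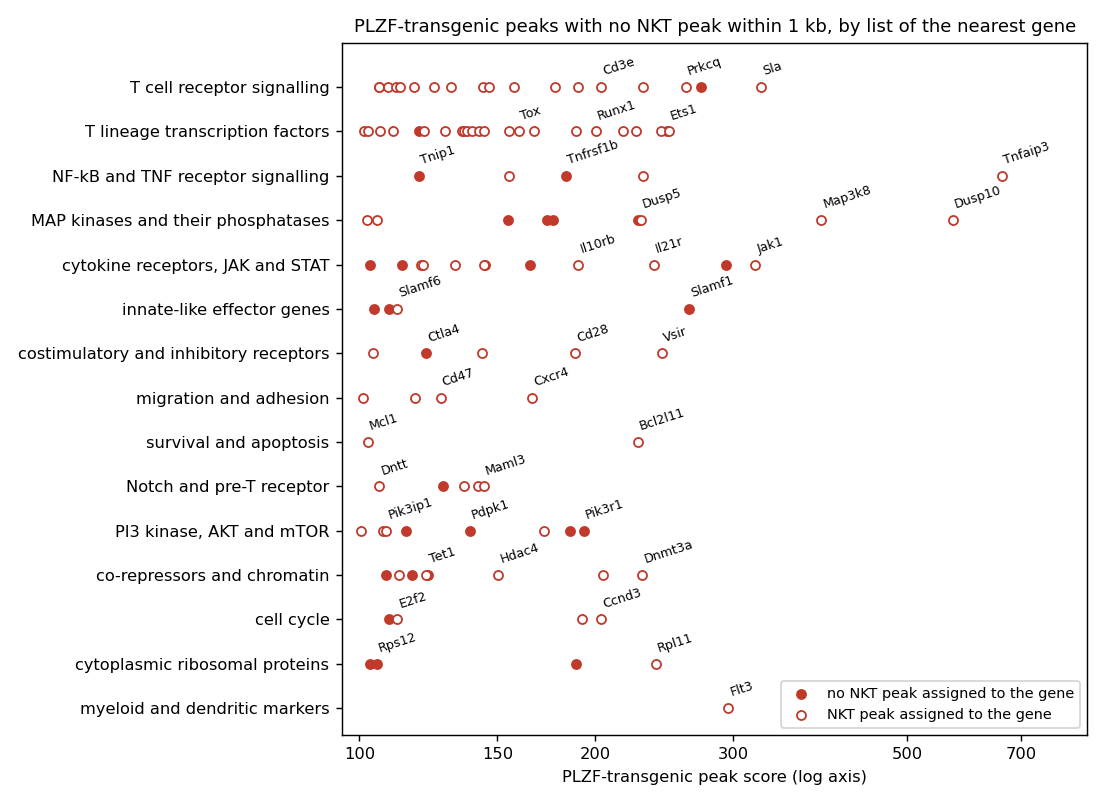
Score of each unmatched peak whose nearest gene is on a list, 1 row per list, with filled points for genes with no NKT peak assigned and open points for genes with one. Up to 3 well-separated genes are named per row. Tnfaip3 (661.9), Dusp10 (572.5) and Map3k8 (388.8) are the highest points, all open.

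MAP kinases and their phosphatases had an unmatched peak at 9 of 40 genes, a matched peak at 5 and an NKT peak at 13. Dusp10 (572.5) and Map3k8 (388.8) led, followed by Dusp5 (228.5), Dusp22 (227.1), Ptpn7 (176.6) and Mapk14 (173.6). Of these, Dusp5, Dusp10 and Dusp22 encode dual-specificity phosphatases, and Mapk14 encodes the kinase p38 alpha. Dusp22, Ptpn7, Mapk14 and also Dusp4 (154.9) had no assigned NKT peak. The unmatched peak covered the start of Ptpn7, 595 kb from the nearest NKT peak. It lay inside Dusp22 and Mapk14, 46.5 and 209 kb from an NKT peak. At Dusp4, Dusp5, Dusp10 and Map3k8 it was 26.1 to 67.2 kb from the gene.

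Of 45 genes for cytokine receptors, JAK and STAT proteins, 11 had an unmatched peak, 18 a matched and 23 an NKT peak. The kinase genes Jak1 (320.1), Jak2 (113.4) and Tyk2 (103.1) each had one. Stat6, the transcription factor of interleukin 4 signalling, had 2 close to each other, of 293.6 at chr10:127641805-127642576 and of 144.5 at chr10:127642819-127643229. The weaker of these covered the start of Stat6, the stronger ended upstream of the gene, and the nearest NKT peak was 25.4 kb from the weaker. Il21r (237.7), Il10rb (190.2) and Il10ra (164.9) encode receptor chains, and Stat6, Jak2, Tyk2 and Il10ra had no assigned NKT peak. At Il10ra the unmatched peak lay 22.9 kb from the gene.

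The innate-like effector list, which holds genes of the program that PLZF is known for, had unmatched peaks at 3 of 31 genes, matched peaks at 5 and NKT peaks at 8. Slamf1, of the SLAM receptor family that takes part in natural killer T cell development, had 2 inside the gene, of 263.1 and 109.2, and the nearest NKT peak was 136 kb away. Slamf6 of the same family had 1 of 111.8 and also 2 NKT peaks. Gzmk, encoding granzyme K, had 1 of 104.3 at 1.23 kb from the gene and no assigned NKT peak. Of costimulatory and inhibitory receptors, 3 of 22 had an unmatched peak, against 9 with a matched one. These were Vsir (243.4), Cd28 (188.3) and Ctla4 (121.5), and of the 3 Ctla4 had no assigned NKT peak.

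In the NF-kB and TNF receptor list, 4 of 44 genes had an unmatched peak and 10 a matched one. Tnfaip3 had 2, of 661.9 and 229.8, at 89.5 and 47.5 kb from the gene. Tnfrsf1b (183.3), a TNF receptor, and Tnip1 (119.2), a partner of A20, had their peak inside the gene and no assigned NKT peak. These 2 peaks lay 45.5 and 64.0 kb from the nearest NKT peak. The PI3 kinase, AKT and mTOR list had 6 of 25 genes with an unmatched and 6 with a matched peak. They were Pik3r1 (193.3), Inpp4b (185.8), Pik3r5 (172.2), Pdpk1 (138.3), Pik3ip1 (108.2) and Rptor (100.5). Pik3r1, a regulatory subunit of PI3 kinase, Inpp4b, a phosphatase of its products, and Pdpk1, a kinase that activates AKT, had no assigned NKT peak. Their highest unmatched peaks lay 178, 1470 and 21.0 kb from the nearest NKT peak.

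The list of co-repressors, which PLZF is known to recruit, and of other chromatin factors had an unmatched peak at 8 of 39 genes and a matched peak at 6. The highest were at Dnmt3a (229.6), a DNA methyltransferase, Arid1a (204.8), a subunit of the BAF remodelling complex, and Hdac4 (150.4), a histone deacetylase. Lower ones were at Tet1 (122.2), which oxidises methylated cytosine, Smarca4 (121.7), the BAF ATPase, and Cul3 (116.6), a ubiquitin ligase scaffold. Tet1, Cul3 and Sin3b (108.2) had no assigned NKT peak, and the Cul3 peak lay 72.0 kb from the gene.

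The Notch and pre-T receptor list had an unmatched peak at 4 of 20 genes, against 7 with a matched one. They were Maml3 (144.2) and Maml2 (141.5), both coactivators of Notch, Rag2 (127.9), of the V(D)J recombinase, and Dntt (106.0), the polymerase that adds bases at V(D)J joints. The Rag2 peak, chr2:101624516-101624908, covered a start of Rag2, and no NKT peak was assigned to that gene. The nearest NKT peak, of score 112.2, lay 15.6 kb away.

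The other lists had unmatched peaks at 7.14 to 8.82% of their genes, against 3.57% of all protein-coding genes. Migration and adhesion genes had 3 of 34, against 14 with a matched peak, namely Cxcr4 (165.9), Cd47 (126.9) and Itga4 (117.9), all with an NKT peak as well. These 3 peaks lay 10.8, 32.6 and 24.1 kb from the gene, and another at Cd47 (101.1) lay 16.4 kb from it. The count was thus 0 with a limit of 10 kb. Survival genes had 2 of 28, Bcl2l11 (226.7), encoding BIM, and Mcl1 (102.4). Cell cycle genes had 3 of 39, Ccnd3 (203.5), E2f2 (111.8) and Aurkb (109.0), of which Aurkb had no assigned NKT peak. The Aurkb peak lay 31.7 kb from the nearest NKT peak. Ribosomal protein genes had 4 of 50. Rps12 (105.3) and Rps7 (103.1) had a peak over a start, and Rpl11 (238.8) had one at 35.8 kb from the gene.

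Each list of marker genes of other cell types had an unmatched peak at 1 gene or none. None of the 19 B cell markers and none of the 19 thymic stroma markers had one. Of 24 myeloid and dendritic markers Flt3, a receptor of early progenitors and dendritic cells, had 1, of score 295.7 (4.17% of the list, against 3.57% of all genes). Matched peaks were at 1 B cell, 2 myeloid and no stroma markers, and NKT peaks at 3, 2 and 1. Lists this short hold few genes at the background share, and a peak list gives no expression, so the labelled cell type could not be checked.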

How the data were processed

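The data were 2 peak lists, 1 per streptavidin ChIP library, each with 5 columns (chromosome, start, end, name and score). The 2 input libraries were not analysed here. The score in column 5 was deposited by the authors with each peak, and no source used here gives its definition, the peak caller settings, the use of the input or any pooling. Per the submitters' processing notes, Bowtie, Picard and HOMER were used with build mm10. Scores rank peaks within a list, may grow with depth, and were not compared between lists as a change. The lowest scores listed were 50.03 (PLZF-transgenic) and 50.02 (NKT). No columns of other samples were present.

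Starts were raised by 1 base to 1-based coordinates. Peaks of the PLZF-transgenic list with a score of at least 100 and no NKT peak overlapping the interval widened by 1 kb on each side were kept, without chrM and chrY, which removed 1 peak. Gene spans, names and biotypes came from the RefSeq table of GRCm38.p6, and start windows (250 bp before to 50 bp after a start) and miRNAs from RefSeq tables of the same assembly. Chromosome 18 had no start windows in use here, so values on starts rest on 906 of the 933 peaks. Windows were searched for motifs, and sequence of the peaks themselves was not used here. A peak was given to the protein-coding gene closest to its midpoint, up to 100 kb away. Shares have exact Clopper-Pearson 95% intervals. All 563 symbols of the 17 lists were in the gene table. Overlap and assignment were tested on simulated data. Python 3.11.15, pandas 2.3.3, numpy 2.4.6, scipy 1.17.1 and matplotlib 3.10.9 were used.

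Named regions were the 20 highest peaks. Named genes were the nearest genes of these, genes with 3 or more unmatched peaks, up to 6 genes per list by score, up to 4 per list with neither a matched nor an NKT peak, and the 10 highest of the genes with a covered start window. Other genes of small counts, the score classes and the printed windows were chosen after their values were seen. Some genes that this rule names are left out of the text. The peaks and the lists were chosen with earlier results of these data known. Alternatives changed the score minimum, the window, the boundary distance, the annotation and the limit for the nearest gene.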

Additional observations from a re-analysis of the deposited data

How the results depend on the processing

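There were 1455 unmatched peaks (39.0% of peaks kept) with a score minimum of 75, and 398 (21.1%) with one of 150, against 933 (32.5%). The share was 35.7% with no window and 27.9% with a window of 5 kb. With a minimum of 150, 357 genes had an unmatched peak, against 773. Median width was 401 bp at a minimum of 75 and 554 bp at 150. With boundaries taken as 2.5 kb, 34.4% of unmatched peaks lay at a boundary, 44.9% inside genes and 20.7% between them, and with protein-coding genes alone 16.3%, 48.4% and 35.3%. The boundary share of unmatched minus matched peaks stayed between -3.5 and 0.76 percentage points over the alternatives run, inside its interval of -4.03 to 2.56. With a limit of 10 kb to the nearest gene, MAP kinase genes with an unmatched peak numbered 5, cytokine genes 7 and migration genes 0. With a minimum of 150 they numbered 8 for T cell receptor signalling, 9 for transcription factors, 5 for cytokine genes, 3 each for PI3 kinase and chromatin, 2 for ribosomal proteins, 1 each for effector, migration, survival and cell cycle genes and 0 for Notch. Raising the minimum keeps fewer peaks by construction. Of 77 alternatives, 48 stayed within the limits set for them. No paired analysis was possible because each group had 1 library. Without replicates or read counts, error between mice and the effect of depth on the NKT list cannot be had.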

Other observations

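Histone genes were looked at after their values were seen. Of 67 clustered and linker histone genes, 7 (10.4%) had an unmatched peak, 5 (7.46%) a matched peak and 8 (11.9%) an NKT peak. The shares over all protein-coding genes were 3.57%, 6.19% and 11.8%. No NKT peak was assigned to 6 of the 7, against 434 of all 773 genes with an unmatched peak. However, NKT peaks lay 3.68 kb from the unmatched peak of H1f3, 5.85 kb from that of H2bc18 and 7.28 kb at H3c7. The distance was 12.4 kb at H4c3, 16.7 kb at H1f1 and 66.0 kb at H4c9. The unmatched peaks scored 203.6 at H2bc18, 152.8 at H4c3, 142.5 at H1f3, 140.2 at H3c7, 115.1 at H1f1 and 105.2 at H4c9. At H2bc18, H1f1 and H4c9 they covered a start. The seventh gene, H4c8, had 2 unmatched peaks, of 152.8 and 113.4, beside 2 matched ones that reached 779.4. The higher of the 2 unmatched peaks lay 13.0 kb from H4c8 and 3.1 kb from an NKT peak. Histone genes lie in clusters, so these are not independent loci.

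The peaks of 152.8 at H4c3 and H4c8 are separate peaks with the same score and width. Such ties were frequent. Of the 933 unmatched peaks, 289 (31.0%) had exactly the score and the width of another PLZF-transgenic peak of score 100 or more, against 343 of 1938 matched peaks (17.7%). Peak names and positions differed in each case. Matched peaks had higher scores, and neither the part of score in this difference nor another reason for the ties was tested.

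Hairpins of miRNAs near matched or NKT peaks were not counted, so the following counts have no comparison. Of 1005 miRNA hairpins in the RefSeq table, 21 lay within 10 kb of an unmatched peak and 5 within 1 kb. Mir142, which encodes a miRNA abundant in blood cells, was among these 5, with its antisense hairpin Mir142b, and is described here after its values were seen. Mir142 lay 199 bp from an unmatched peak at chr11:87756238-87756665 that scored 115.5, with an NKT peak 1.71 kb from the hairpin. The same unmatched peak lay 1.09 kb from an NKT peak, so it owes its place to the 1 kb window. Its nearest protein-coding gene, Tspoap1, also had 3 matched peaks of up to 1251 and 6 NKT peaks. Its mature sequences in RefSeq (GRCm38.p6) are given with bases 2 to 8, the seed, in capitals.
mmu-miR-142a-5p: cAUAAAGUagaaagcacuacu
mmu-miR-142a-3p: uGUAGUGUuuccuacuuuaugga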
